A study of Mus musculus with 10 samples.

Results

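De novo lipogenesis is the making of fatty acids from sugar-derived carbon, and 10 genes of it were followed in brown adipocytes, fat cells specialised in producing heat from lipid. They were picked by symbol: Srebf1, Mlxipl and Thrsp on the regulatory side, Acly, Acaca, Acacb, Fasn and Me1 for synthesis, and Scd1 and Scd2 for desaturation. All 10 were found among the 24640 rows of the count table and all 10 were among the 15212 that passed the filter on low counts. Messenger RNA was sequenced in 10 libraries of cells from C57BL/6 mice, in 5 groups of 2. DMSO, the solvent control, and BML-260, sold as a chemical inhibitor of the dual-specificity phosphatase Dusp22, were each given for 1 day and for 3 days. The other group is ISO, an abbreviation that the labels do not explain, with a time of 1 day. No dose, sex, age or way of making the adipocytes is given in the labels used here, and no untreated group is among the samples. The labels also do not say whether the 2 libraries of a group came from separate cultures, so the p-values here rest on the variation between libraries alone, and that may be technical.

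Cells make fatty acids in the cytosol from citrate that leaves the mitochondria. ATP-citrate lyase (Acly) splits the citrate to acetyl-CoA, acetyl-CoA carboxylase turns that into malonyl-CoA, and fatty acid synthase (Fasn) builds palmitate from both. Acaca encodes the cytosolic carboxylase, and Acacb the form on the mitochondrial surface, whose malonyl-CoA holds back the entry of fatty acids for oxidation. Malic enzyme (Me1) supplies NADPH for the reductive steps. The desaturases Scd1 and Scd2 put a double bond into the saturated products. The transcription factor SREBP1 (Srebf1) drives the pathway downstream of insulin, ChREBP (Mlxipl) drives it in response to glucose, and Thrsp, also called Spot 14, is a thyroid hormone-responsive protein linked to lipogenesis. Brown fat is known for running fatty acid synthesis and oxidation side by side.

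The 250 bases before the annotated start were read for the members from RefSeq on GRCm38.p6, where 8 of the 10 had an entry, with 12 starts in all. Scd1 and Scd2 had none. Each window was searched on both strands for 4 motifs. The sterol regulatory element TCACNCCAC, which SREBP binds, was in 1.05% of the 32851 windows of this length in the table, the E-box CACGTG in 6.02%, the NF-Y box CCAAT in 33.8% and the GC box GGGCGG in 32.7%. The windows of Fasn, Srebf1 and Mlxipl are shown because these genes are the synthase and the transcription factors of the pathway, and capitals mark the motif matches, on either strand.
Fasn, chr11:120824548-120824797, minus strand: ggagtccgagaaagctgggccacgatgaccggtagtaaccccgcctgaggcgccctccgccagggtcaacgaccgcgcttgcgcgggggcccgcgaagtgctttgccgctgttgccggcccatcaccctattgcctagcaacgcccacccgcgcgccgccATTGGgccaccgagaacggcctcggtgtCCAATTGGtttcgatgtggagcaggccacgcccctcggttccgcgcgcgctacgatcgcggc
Srebf1, chr11:60210472-60210721, minus strand: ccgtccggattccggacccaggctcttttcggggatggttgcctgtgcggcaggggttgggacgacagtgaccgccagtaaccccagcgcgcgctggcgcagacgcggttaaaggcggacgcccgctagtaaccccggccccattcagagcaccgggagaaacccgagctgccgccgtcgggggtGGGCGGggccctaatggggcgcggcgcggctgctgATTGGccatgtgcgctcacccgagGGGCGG
Mlxipl, chr5:135106641-135106890, plus strand: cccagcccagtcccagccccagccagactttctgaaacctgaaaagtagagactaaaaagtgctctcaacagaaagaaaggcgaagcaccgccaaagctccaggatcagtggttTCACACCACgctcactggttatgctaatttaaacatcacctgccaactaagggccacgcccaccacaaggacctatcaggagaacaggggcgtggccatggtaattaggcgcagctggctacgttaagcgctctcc
The Fasn window held 3 matches to the NF-Y box, of which 2 overlap in a palindrome 55 to 62 bases before the start, and none to the other motifs. This Srebf1 window, 1 of 3 for the gene, held 1 NF-Y box and 2 GC boxes. This Mlxipl window, 1 of 2, held a sterol regulatory element 128 to 136 bases before its start, the only match to it in the 12 windows, and was chosen for that. The other Mlxipl window, before the start of the gene as annotated, had none, and held an E-box, an NF-Y box and 2 GC boxes. The Srebf1 and Mlxipl windows shown lie within the span of their genes and hold no annotated exon base of them. A match is a description of the letters and not a bound site, and no measure of binding was analysed here. Only exact matches to these letters were searched, so a window without a match may still hold a site that departs from them.

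The members were expressed in every library and together took 1.86% to 2.25% of its counts. Levels are in CPM, counts scaled to a common library size after TMM normalization, and between genes in CPM per kilobase of exon. On the latter scale the desaturases stood first and next in each of the 5 groups. With DMSO at 1 day Scd1 was at 2176 ± 63.1 and Scd2 at 1013 ± 55.9 CPM per kb (SD, n = 2 each). Srebf1 at 193 ± 11.3, Acly at 175 ± 9.42, Fasn at 166 ± 3.02, Me1 at 129 ± 12.3 and Thrsp at 127 ± 5.14 CPM per kb formed a middle group. Acaca at 45.6 ± 2.59, Acacb at 31.0 ± 1.06 and Mlxipl at 22.9 ± 3.04 CPM per kb were lowest, in that order of means in all 5 groups (SD, n = 2 each). With ISO Acaca, at 54.6 to 61.3, overlapped with Thrsp, at 56.6 to 63.7 CPM per kb. The length used is the union of all annotated exons of a gene, 17.07 kb for Acaca, and the rank depends on it.

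The genes also differed in how far they moved over the study. Between the group of highest and the group of lowest mean CPM the level differed 2.71-fold for Thrsp, 2.05-fold for Fasn and 1.91-fold for Srebf1. It differed 1.60-fold for Me1, 1.48-fold for Acly and 1.44-fold for Acaca. The narrowest ranges were 1.31-fold for Acacb and Mlxipl, 1.30-fold for Scd1 and 1.23-fold for Scd2.

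**Figure D1:**
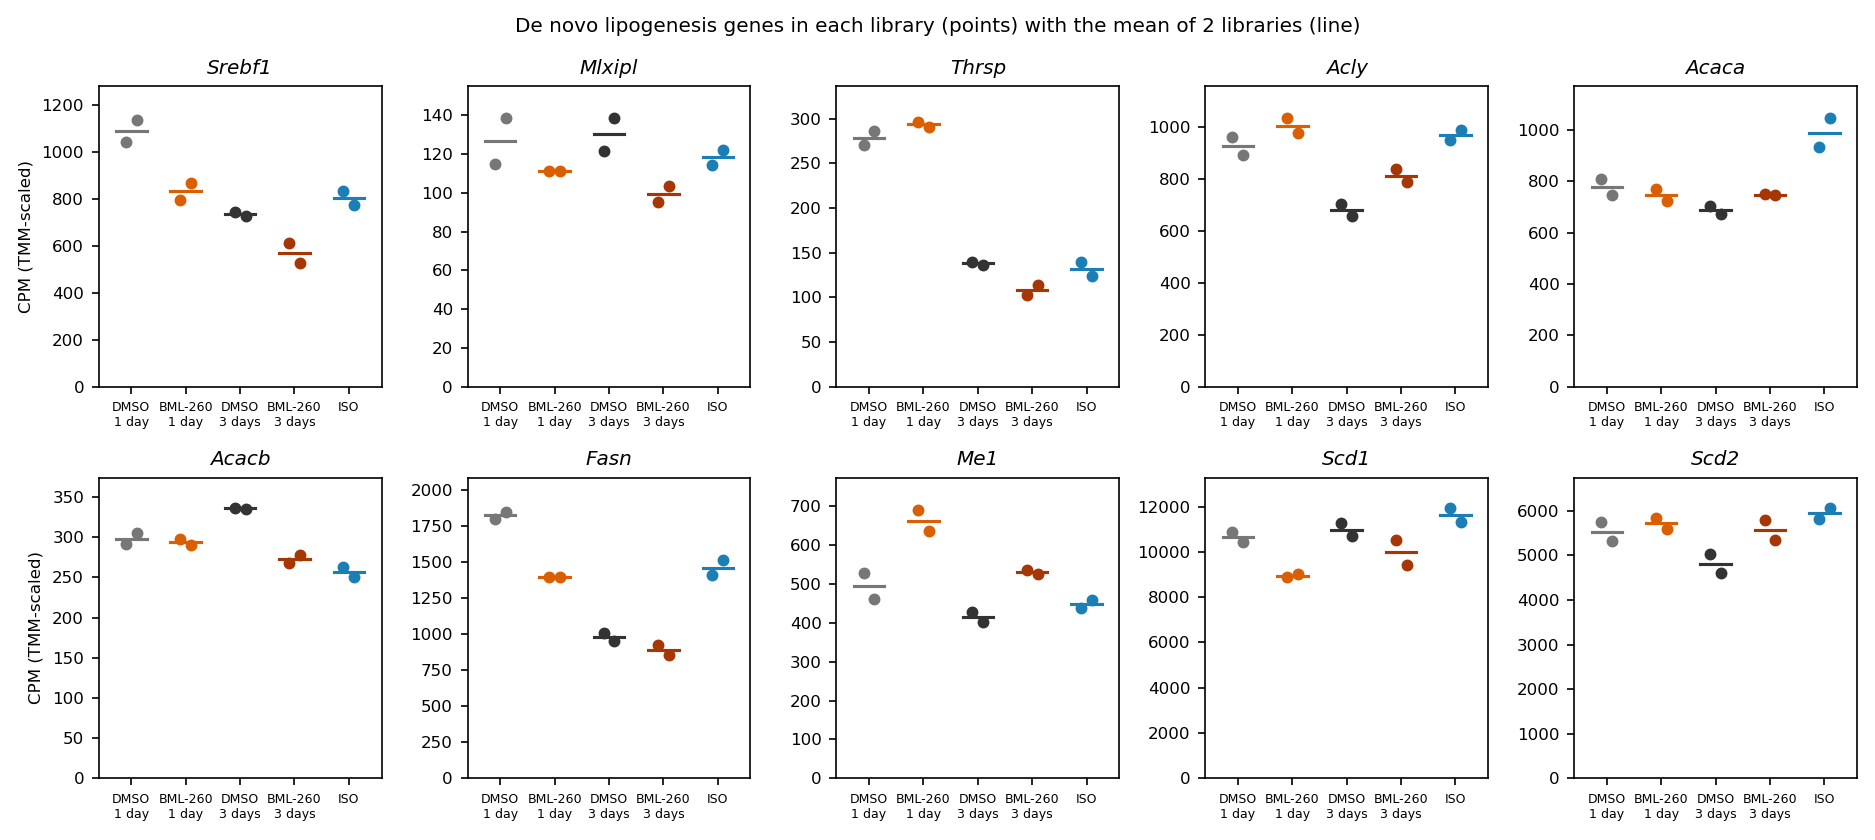
Level of each of the 10 genes in CPM (vertical axes, from 0) in every library, by group (horizontal axes). Points are libraries and lines are means of 2 libraries. The means of Thrsp span 2.71-fold and those of Scd2 span 1.23-fold.

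Library totals ran from 16955918 to 21185675 counts, and the lowest correlation of log2 CPM over genes between libraries of a group was r = 0.994. The labelled cell type was checked against marker lists. The 6 brown adipocyte markers summed to 533 to 692 CPM over all libraries. With DMSO at 1 day Cox7a1 was at 338.5, Cidea at 129, Ppargc1a at 50.3, Cox8b at 9.98 and Ucp1 at 5.58 CPM. Dio2 reached at most 0.107 CPM in any library. All 8 adipocyte markers were detected, and their summed level, mostly Fabp4, was 11130 to 11165 CPM with DMSO and 14239 to 14821 CPM with BML-260 at 1 day, 8044 to 8199 and 8006 to 8269 CPM at 3 days, and 7477 to 7846 CPM with ISO. The higher sum with BML-260 at 1 day was that of Fabp4, at 6393 ± 177 and 10437 ± 175 CPM (SD, n = 2 each): of the 8 markers 2 were called higher and 4 lower there, with Cebpa at -0.50, Cfd at -0.44 and Adipoq at -0.35. Of other cells, 4 smooth muscle markers (Acta2, Tagln, Myh11, Cnn1) summed to 85.7 to 86.5 CPM with DMSO and 47.6 to 54.5 CPM with BML-260 at 1 day. At 3 days they summed to 138 to 147 and 61.9 to 66.4 CPM, and with ISO to 106 to 117 CPM. The 5 preadipocyte and fibroblast markers (Dlk1, Pdgfra, Ly6a, Cd34, Dcn) summed to 54.3 to 63.8 and 43.7 to 47.0 CPM at 1 day, 98.4 to 110 and 70.8 to 71.5 CPM at 3 days, and 91.9 to 106 CPM with ISO. Macrophage markers summed to at most 7.18 CPM, with Cd68 and Csf1r measured and Adgre1 and Ptprc not, and endothelial markers to at most 1.37 CPM. The skeletal muscle regulators Myod1 and Myog were not measured, and Ckm reached at most 0.0598 CPM.

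Some of these marker levels also differed between the groups compared below, and not always in the direction of the genes. The part of the markers in those results was not tested. In such bulk libraries fewer cells of a type and less RNA per cell cannot be told apart. DMSO at 1 day is the control of both 1-day treatments and the start of the DMSO time course, and DMSO at 3 days is likewise shared, so the comparisons are not independent of each other. A gene is called changed at an adjusted p under 0.05 by edgeR's quasi-likelihood test, adjusted over the 15212 genes tested. A larger share called does not mean larger changes. With ISO against DMSO at 1 day the median size of log2 fold change was 0.182 for the 10 genes and 0.221 for all genes. For BML-260 against ISO it was 0.144 and 0.235, and for BML-260 over time 0.234 and 0.249. In each other comparison it was larger for the 10, as with BML-260 at 3 days, at 0.277 and 0.19. Values per gene are given in the order replicate 1, replicate 2, and the exact test of 2 libraries against 2 could not go below p = 0.333.

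At 1 day the synthase, the SREBP1 gene and the more abundant desaturase were lower with BML-260 than with DMSO, and malic enzyme was higher. Srebf1, Fasn and Scd1 fell and Me1 rose: 4 of the 10 genes were called, 1 higher and 3 lower, beside 17.9% of all genes tested (9.32% higher and 8.62% lower).

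Srebf1, the gene of SREBP1, was at 1043 and 1133 CPM with DMSO and at 796 and 866 CPM with BML-260 for 1 day. Both treated libraries lay below both controls, 0.764-fold or -0.39 on the log2 scale (SE 0.06, edgeR adjusted p = 1.86e-05). Mlxipl was at 115 and 139 CPM with DMSO and at 111 CPM in both libraries with BML-260. The higher control set most of this difference, which was -0.19 (95% interval -0.33 to -0.05, edgeR adjusted p = 0.0545). Without DMSO 1 day replicate 2 it was -0.05 (edgeR adjusted p = 0.769) and without replicate 1 it was -0.32 (edgeR adjusted p = 0.0028). Thrsp was at 271 and 286 CPM with DMSO and 296 and 291 CPM with BML-260, not called at 0.08 (95% interval -0.03 to 0.18, edgeR adjusted p = 0.346).

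Along the route from citrate to palmitate only the last enzyme was called. Acly stood at 961 and 890 CPM with DMSO and 1032 and 974 CPM with BML-260, a log2 fold change of 0.12 (95% interval 0.02 to 0.21, edgeR adjusted p = 0.103). The carboxylases overlapped between groups. Acaca was at 810 and 748 CPM with DMSO and 769 and 724 CPM with BML-260, with an interval of -0.17 to 0.04. Acacb was at 291 and 305 CPM with DMSO and 298 and 291 CPM with BML-260, with an interval of -0.11 to 0.07. For both, a change as large as that of Fasn lies outside the interval. Fasn fell from 1798 and 1845 CPM to 1396 and 1393 CPM. The replicates differed little in either group, and the log2 fold change was -0.39 (SE 0.05, edgeR adjusted p = 1.21e-06), or 0.766-fold with a 95% interval of 0.716 to 0.819. Me1, which makes NADPH, rose from 529 and 462 CPM to 689 and 636 CPM, by 0.42 (SE 0.05, edgeR adjusted p = 2.58e-06) or 1.34-fold.

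The desaturases differed from each other. Scd1 fell from 10865 and 10428 CPM to 8885 and 9011 CPM, a difference of -0.25 on the log2 scale (SE 0.05, edgeR adjusted p = 0.00045). Scd2 was at 5749 and 5317 CPM with DMSO and 5849 and 5595 CPM with BML-260, overlapping, with an interval of -0.05 to 0.15 (edgeR adjusted p = 0.567). The calls of Srebf1, Fasn, Me1 and Scd1 at 1 day held in each of 16 alternative analyses.

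**Figure D2:**
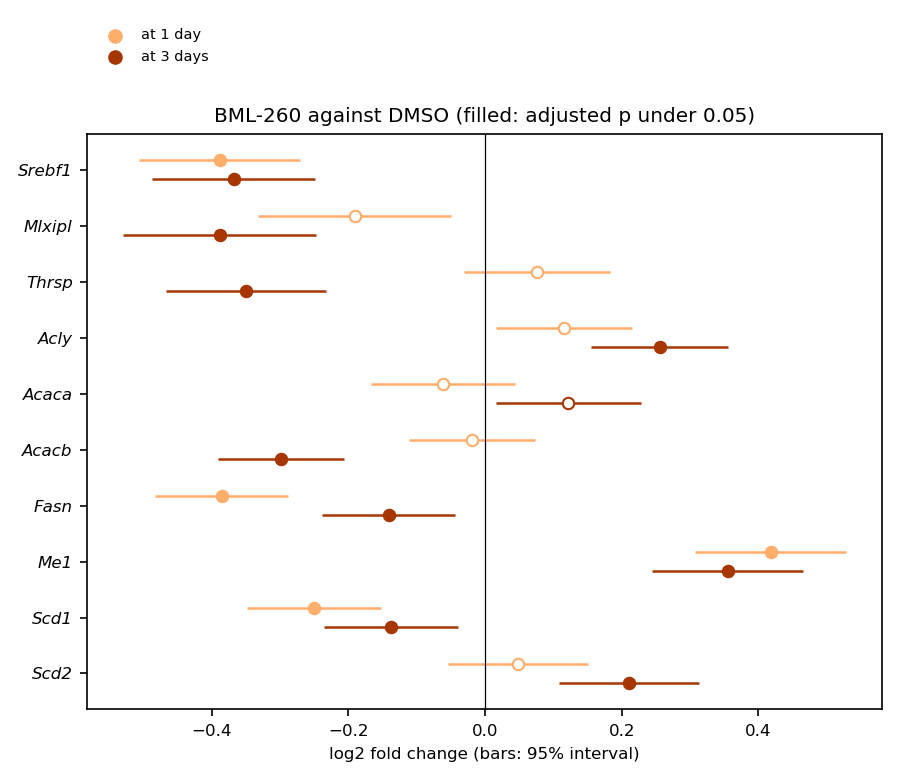
Log2 fold change of BML-260 against DMSO (horizontal axis) for each of the 10 genes (vertical axis) at 1 day (light) and 3 days (dark), with 95% intervals as bars. Filled points passed an adjusted p of 0.05: Srebf1, Fasn and Scd1 lie left of 0 and Me1 right of 0 at both times, while Thrsp and Acacb lie left of 0 with a filled point at 3 days only.

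The genes around the pathway were read from 7 lists with 66 genes, 65 of them tested. At 1 day 17 were higher and 6 lower, 35.4% beside the 17.9% of all genes. In the supply of citrate and acetyl-CoA 6 of 9 rose and none fell, with a median of 0.20 beside 0.00 over all genes. They included 3 subunits of pyruvate dehydrogenase, Pdhb at 0.41, Pdha1 at 0.28 and Dlat at 0.20. In the supply of NADPH, where Me1 also acts, Pgd at 0.43, Taldo1 at 0.32 and G6pdx at 0.27 rose. These are pentose phosphate genes, and none of the 8 in the list fell. The list also holds Me2 and Me3, malic enzymes of the mitochondria, and Me3 was at only 0.569 CPM with DMSO at 1 day. Counts of this list, here and below, are therefore not of cytosolic supply alone.

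Among 12 genes of elongation, desaturation and activation 2 rose and 2 fell. The elongase Elovl3 rose by 1.52 and the acyl-CoA synthetase Acsl4 by 0.31, while Elovl5 stood at -0.16 and Acsl1 at -0.15. Of 20 regulators 3 were higher and 2 lower, among them Insig1 at 0.24 and Insig2 at 0.19, which retain SREBP in the endoplasmic reticulum. Also called were the receptor partner Rxra at -0.27 and the protease Mbtps1, which cuts SREBP, at -0.18. The insulin receptor substrates Irs1 at -0.56 and Irs2 at -0.38 fell, while the glucose transporters Slc2a1 at 0.22 and Slc2a4 at 0.16 rose. Of 6 sterol synthesis and uptake genes, the targets of SREBP2, Sqle alone was called, at 0.47, and neither of the 2 tested glucose-responsive ChREBP targets was.

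At 3 days the 3 regulatory genes stood lower with BML-260 while the enzymes moved in both directions. Srebf1, Mlxipl, Thrsp, Acacb, Fasn and Scd1 fell and Acly, Me1 and Scd2 rose: 9 of 10 genes, 3 higher and 6 lower, beside 35.5% of all genes tested (17.3% higher and 18.3% lower). The median over the 10 was -0.14, beside -0.02 over all genes, and all 10 differences were under 0.40 on the log2 scale in size.

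All 3 regulators stood lower in both treated libraries. Srebf1 went from 744 and 725 CPM with DMSO to 612 and 526 CPM with BML-260, a difference of -0.37 on the log2 scale (SE 0.06, edgeR adjusted p = 1.58e-05). Mlxipl went from 122 and 139 CPM to 95.2 and 104 CPM, at -0.39 (SE 0.07, edgeR adjusted p = 6.86e-05). Thrsp went from 140 and 137 CPM to 103 and 114 CPM, at -0.35 (SE 0.06, edgeR adjusted p = 2.31e-05). These are 0.775-fold, 0.764-fold and 0.785-fold. The groups did not overlap for any of the 3, and each call held in all 16 alternatives.

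Of the synthetic enzymes, Acly, which makes acetyl-CoA, rose from 701 and 657 CPM to 835 and 787 CPM, by 0.26 (SE 0.05, edgeR adjusted p = 0.000168). The 2 carboxylases parted. Acacb fell from 336 CPM in both control libraries to 268 and 278 CPM, at -0.30 (SE 0.04, edgeR adjusted p = 7.62e-06). Acaca, at 703 and 673 CPM with DMSO and 751 and 746 CPM with BML-260, stood at 0.12 (95% interval 0.02 to 0.23, edgeR adjusted p = 0.0652). Its libraries did not overlap, and it passed the threshold in 8 of 16 alternatives, DESeq2 among them (0.14, adjusted p = 0.0433).

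Fasn was at 1010 and 951 CPM with DMSO and at 926 and 852 CPM with BML-260 at 3 days, a difference of -0.14 on the log2 scale (SE 0.05, edgeR adjusted p = 0.0217). The lower control and the higher treated library lay close together. This call was lost on leaving out BML-260 3 days replicate 2 (-0.08, edgeR adjusted p = 0.315), DMSO 3 days replicate 1 (-0.07, adjusted p = 0.431) or DMSO 3 days replicate 2 (-0.16, adjusted p = 0.0519). Me1 rose from 427 and 403 CPM to 537 and 524 CPM, by 0.36 (SE 0.05, edgeR adjusted p = 9.6e-06), with the libraries of the groups well apart.

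Scd1 was at 11262 and 10707 CPM with DMSO and at 10528 and 9439 CPM with BML-260, at -0.14 (SE 0.05, edgeR adjusted p = 0.0256). The same 3 omissions ended its call, at -0.06, -0.07 and -0.15 (edgeR adjusted p = 0.435, 0.396 and 0.0681 in the same order), and DESeq2 did not call it (-0.12, adjusted p = 0.0614). Nor did edgeR with DESeq2-type size factors (adjusted p = 0.0517). Scd2 rose from 5031.5 and 4597 CPM to 5790 and 5357 CPM, by 0.21 (SE 0.05, edgeR adjusted p = 0.00157). Without BML-260 3 days replicate 1 that was 0.15 (edgeR adjusted p = 0.0524).

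The 65 genes of the surrounding lists had 35 higher and 13 lower at 3 days, 73.8% beside 35.5% of all genes. All 6 sterol genes rose, with squalene epoxidase (Sqle) at 1.02, Hmgcs1 at 0.22 and Fdft1 at 0.19. Srebf2, the gene of the related factor SREBP2, rose by 0.42 in the same libraries in which Srebf1 fell. Citrate and acetyl-CoA supply had 5 of 9 higher and none lower, with Pdhb at 0.58, the citrate carrier Slc25a1 at 0.27 and citrate synthase (Cs) at 0.23. Of the NADPH genes 6 of 8 rose, among them Pgd at 0.56, Taldo1 at 0.33, Tkt at 0.19 and the mitochondrial Me2 at 0.22. Isocitrate dehydrogenase Idh1 fell by 0.60.

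Of 20 regulators 7 were higher and 4 lower. Nr1h3, the gene of LXR alpha, which activates Srebf1, fell by 0.45, while Nr1h2, the gene of the related LXR beta, rose by 0.29. Prkaa1, a catalytic subunit of the kinase AMPK that inhibits acetyl-CoA carboxylase, fell by 0.45 and its subunit Prkab2 rose by 0.40. The insulin and glucose list split evenly, 4 and 4 of 8, with the glucose transporter Slc2a1 at 0.60 and hexokinase Hk2 at 0.56 higher and Irs1 at -0.64 and the insulin receptor Insr at -0.30 lower. Of elongation, desaturation and activation genes 6 of 12 rose and 3 fell, with Elovl3 at 1.28, Acsl4 at 0.47, the desaturase Fads1 at 0.34 and Acsl1 at -0.32. The tested ChREBP targets went apart, Arrdc4 at 0.40 and Txnip at -0.14. In the same libraries 5 of 8 adipocyte markers fell, among them Adipoq by 1.06, Cebpa by 0.94 and Pparg by 0.45, and 2 rose, while 3 of 4 smooth muscle markers fell, Acta2 by 1.25. Their part in these results was not tested.

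**Figure D3:**
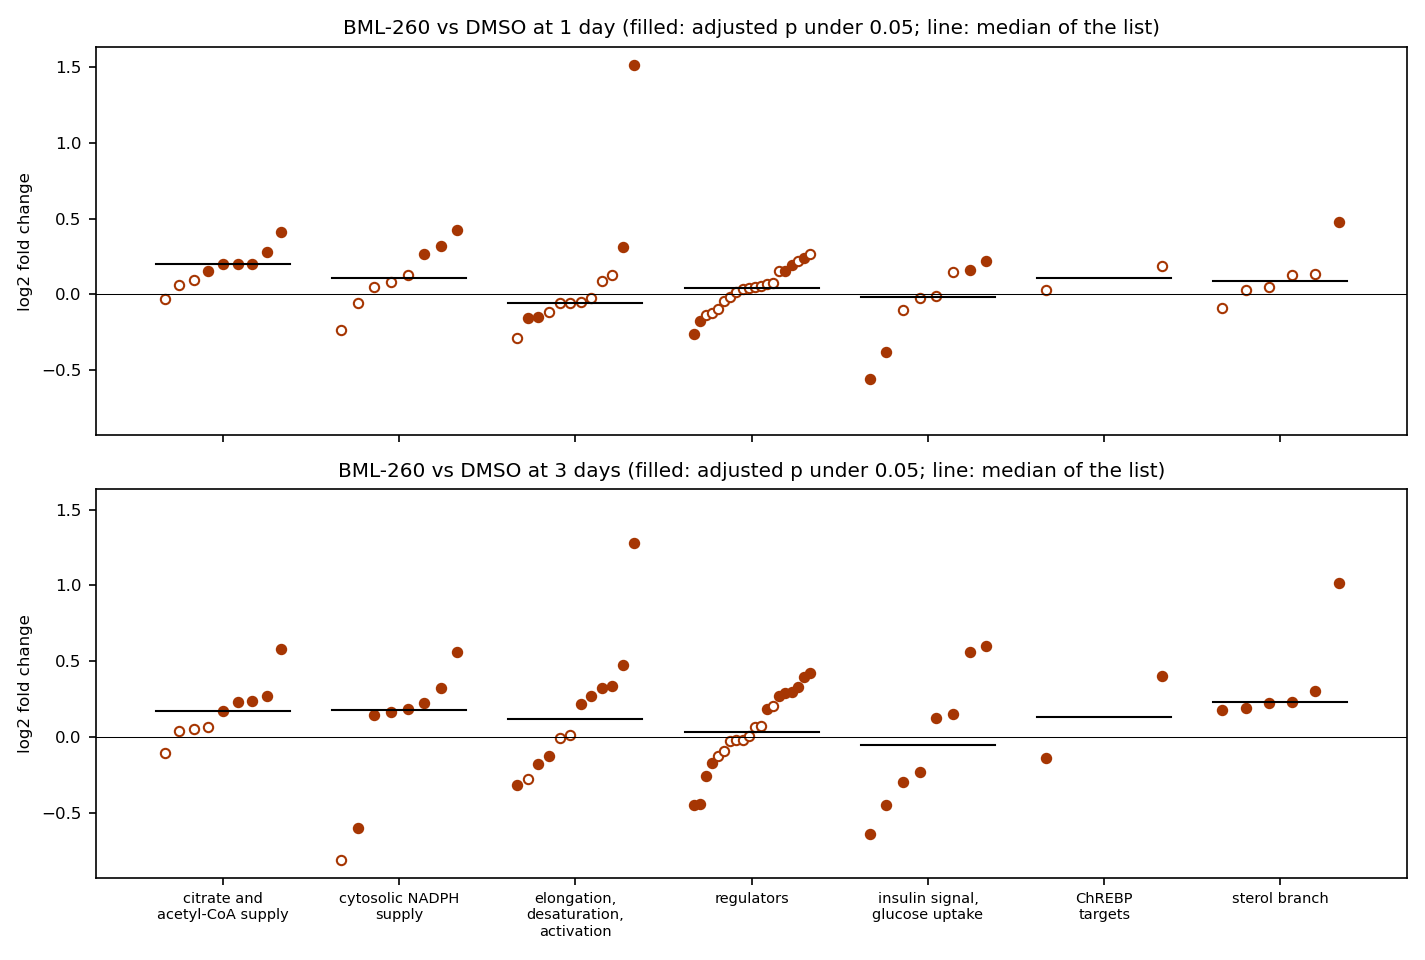
Log2 fold change of BML-260 against DMSO (vertical axes) at 1 day (top) and 3 days (bottom) for the 65 tested genes of the 7 lists (horizontal axis), each point a gene, filled where adjusted p was under 0.05, and the line the median of the list. The sterol list has 1 filled point at 1 day and 6 at 3 days, and the citrate supply list has no filled point below 0 at either time.

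The BML-260 effect itself differed between the times for 3 of the 10 genes, 1 higher and 2 lower, beside 8.44% of all genes tested (3.93% higher and 4.51% lower). For Thrsp the log2 fold change at 3 days was below that at 1 day by 0.43 (SE 0.08, edgeR adjusted p = 0.000958), from 0.08 to -0.35. For Acacb it was lower by 0.28 (SE 0.06, edgeR adjusted p = 0.00609), from -0.02 to -0.30. For Fasn it was higher by 0.24 (SE 0.07, edgeR adjusted p = 0.022), so that the fall of 0.39 at 1 day had shrunk to 0.14. The difference of Thrsp was called in all 16 alternatives.

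Those of Fasn and Acacb were called in 13 and 14 of them. The difference of Fasn was lost without BML-260 3 days replicate 1 (0.18, edgeR adjusted p = 0.15), DMSO 1 day replicate 2 (0.23, adjusted p = 0.0788) or DMSO 3 days replicate 2 (0.23, adjusted p = 0.0787). That of Acacb was lost without DMSO 3 days replicate 1 (-0.25, edgeR adjusted p = 0.0566) or replicate 2 (-0.25, adjusted p = 0.0506), so that without the latter 1 of the 10 genes was called. For the other 7 the difference was not called. It was 0.02 for Srebf1 (95% interval -0.15 to 0.19) and -0.06 for Me1 (interval -0.22 to 0.09), the genes whose effects at the 2 times were nearest. Mlxipl, at -0.20, and Scd2, at 0.16, have intervals that reach -0.40 and 0.31, so sizeable differences between times are within the error.

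From 1 day to 3 days in DMSO most of the pathway went down. Between these times Fasn, Acaca, Acly, Me1, Thrsp, Srebf1 and Scd2 fell and Acacb rose: 8 of 10, 1 higher and 7 lower, beside 34.9% of all genes tested (18.1% higher and 16.8% lower). Thrsp went from 271 and 286 CPM to 140 and 137 CPM, 0.496-fold or -1.01 on the log2 scale (SE 0.05, edgeR adjusted p = 1.37e-13). Fasn went from 1798 and 1845 CPM to 1010 and 951 CPM, at -0.89 (SE 0.05, edgeR adjusted p = 1.37e-13) or 0.538-fold. Srebf1 fell by 0.57, Acly by 0.45 and Me1 by 0.26, with no overlap between times for any of the 3.

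The remaining calls were smaller. Acaca was at -0.18 (edgeR adjusted p = 0.00756), Scd2 at -0.20 (adjusted p = 0.00247) and Acacb at 0.17 (adjusted p = 0.00369). Without DMSO 1 day replicate 1 these 3 were at -0.12, -0.14 and 0.14 and none passed (edgeR adjusted p = 0.149, 0.068 and 0.0544), which left 5 of the 10. Acaca (-0.16, adjusted p = 0.0819) and Scd2 (-0.15, adjusted p = 0.0723) also missed the threshold without DMSO 3 days replicate 2. Mlxipl, at 0.04 (95% interval -0.10 to 0.17), and Scd1, at 0.05 (interval -0.05 to 0.14), were not called, and their libraries overlapped.

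With BML-260 from 1 day to 3 days 7 of 10 were called, 1 higher and 6 lower, beside 46.4% of all genes tested (22.9% higher and 23.4% lower). Thrsp went from 296 and 291 CPM to 103 and 114 CPM, at -1.44 (SE 0.06, edgeR adjusted p = 7.72e-17) or 0.369-fold. Fasn was at -0.65, Srebf1 at -0.55, Me1 at -0.32 and Acly at -0.31. Scd1 rose by 0.16 (edgeR adjusted p = 0.00797), and lost its call without BML-260 3 days replicate 1 (0.08, adjusted p = 0.25) and with upper-quartile scaling (0.12, adjusted p = 0.0567). Acacb, at -0.11 (edgeR adjusted p = 0.0499), was called in 6 of 16 alternatives. Acaca stood at 0.00 (95% interval -0.10 to 0.11), and at -0.04 with upper-quartile scaling. The change over time differed between the treatments by the same values as the BML-260 effect did between times, for Thrsp, Acacb and Fasn as above. Over time in BML-260 7 of 8 adipocyte markers also fell and none rose, with a median of -0.91 beside -0.01 over all genes. Of the 4 tested preadipocyte and fibroblast markers 3 rose. The part of the markers in the lower lipogenic genes was not tested.

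Of the 65 genes of the surrounding lists 15 were higher and 28 lower over time in DMSO, 66.2% beside the 34.9% of all genes, and the lists differed. Of the citrate supply genes 8 of 9 were lower, with malate dehydrogenase Mdh1 at -0.71, pyruvate carboxylase Pcx at -0.43 and Pdhb at -0.42. Of the NADPH genes 7 of 8 were lower and none higher, with Taldo1 at -0.50 and G6pdx at -0.37. The sterol list had 4 of 6 lower, Hmgcs1 at -0.32 among them. Nr1h3 fell by 0.52 and the ChREBP partner Mlx by 0.42, while the glucose-responsive Txnip rose by 1.00 and Slc2a1 by 0.65. The regulators split 5 and 5 of 20, the insulin and glucose list had 4 higher and 3 lower of 8, and elongation, desaturation and activation had 4 higher and 1 lower of 12, with Acsl4 at 0.34 and Acsl1 at -0.50. Of 8 adipocyte markers 7 fell, Cebpa by 0.85 and Fabp4 by 0.47 among them, and 1 rose, and the part of this in the lower lipogenic genes was not tested.

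**Figure D4:**
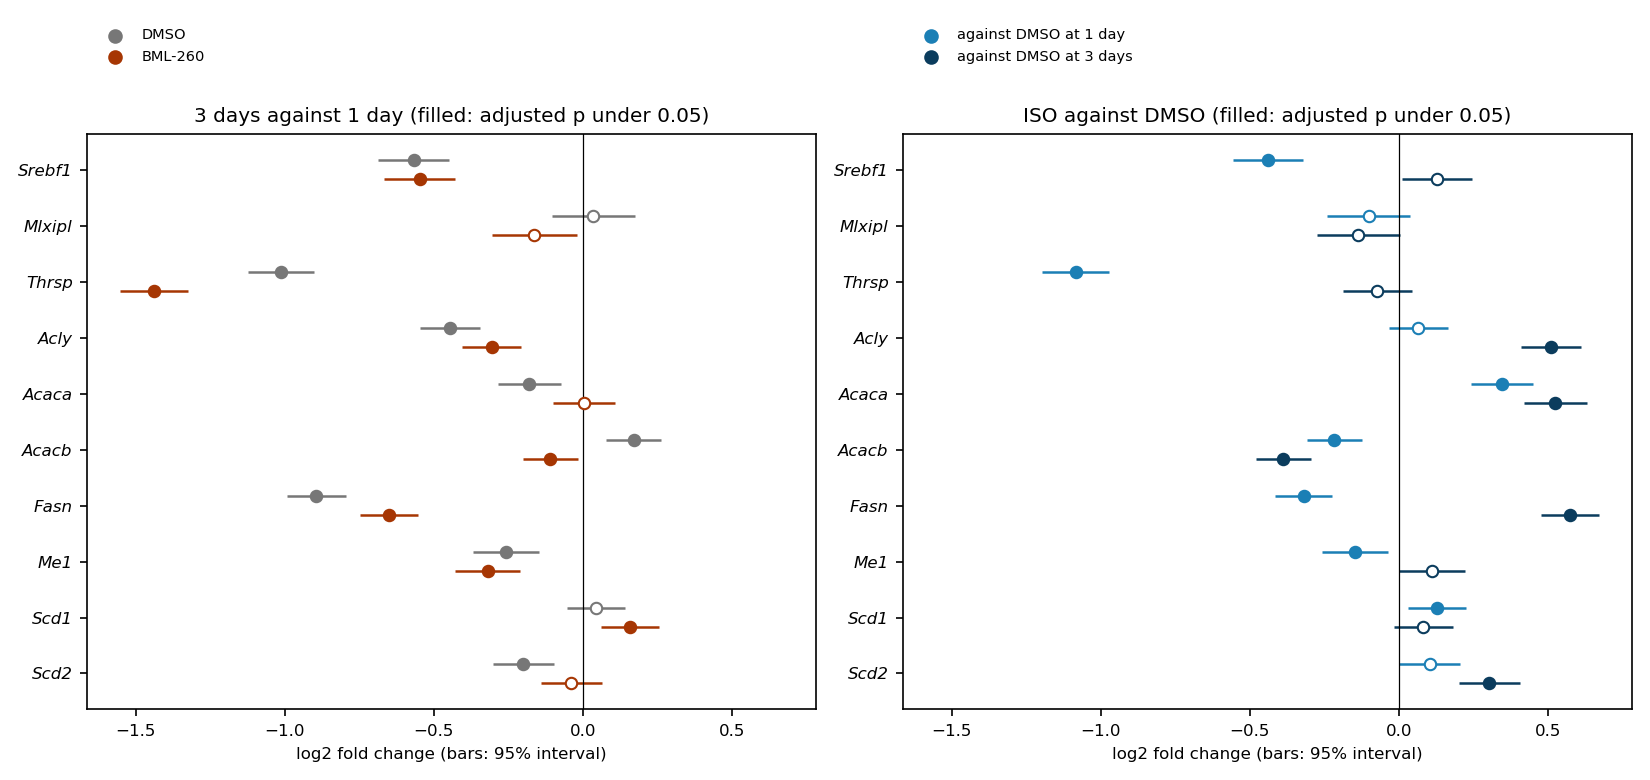
Log2 fold change with 95% intervals (horizontal axes) for each of the 10 genes (vertical axis) over time in DMSO and in BML-260 and for ISO against DMSO at each time, as labelled in the plot. Filled points passed an adjusted p of 0.05. Thrsp is near -1 over time in DMSO and with ISO against DMSO at 1 day, and Fasn lies left of 0 against DMSO at 1 day and right of 0 against DMSO at 3 days.

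With ISO at its listed 1 day Thrsp, Srebf1, Fasn, Acacb and Me1 were lower and Acaca and Scd1 higher than with DMSO at 1 day: 7 of 10, 2 higher and 5 lower, beside 41.7% of all genes tested (21.4% higher and 20.3% lower). Thrsp was at 139 and 124 CPM with ISO, less than any 1-day library of the other treatments, at -1.08 (SE 0.05, edgeR adjusted p = 3.31e-14) or 0.472-fold. Srebf1, at 833 and 772 CPM, was at -0.44 (SE 0.06, edgeR adjusted p = 7.07e-07), and Fasn, at 1410 and 1510 CPM, was at -0.32 (SE 0.05, edgeR adjusted p = 4.16e-06). Acaca reached its highest levels of the study, 933 and 1046 CPM, at 0.35 (SE 0.05, edgeR adjusted p = 4.45e-06). Acacb was at its lowest, 263 and 251 CPM, at -0.22 (SE 0.05, edgeR adjusted p = 0.000332).

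Me1, at 438 and 458 CPM, was at -0.15 (SE 0.05, edgeR adjusted p = 0.0308), and without DMSO 1 day replicate 1 at -0.04 (adjusted p = 0.594). Leaving out ISO replicate 1 also ended its call (-0.12, edgeR adjusted p = 0.173), as did DESeq2 (-0.14, adjusted p = 0.0523). Scd1, at 11928 and 11332.5 CPM, was at 0.13 (SE 0.05, edgeR adjusted p = 0.0334). That call was lost without DMSO 1 day replicate 2 (0.10, edgeR adjusted p = 0.195), without ISO replicate 1 (0.09, adjusted p = 0.201) and with upper-quartile scaling (0.08, adjusted p = 0.228). Acly, at 948 and 989 CPM, Mlxipl, at 114 and 122 CPM, and Scd2, at 5827 and 6061.5 CPM, were not called, at 0.07, -0.10 and 0.10.

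Against DMSO at 3 days, which is not matched in time, the picture was another. There Fasn at 0.57, Acaca at 0.53, Acly at 0.51 and Scd2 at 0.30 were higher and Acacb at -0.39 was lower with ISO, 5 of 10 with 4 higher and 1 lower, beside 19.9% of all genes tested (10.6% higher and 9.24% lower). Thrsp, at -0.07 (95% interval -0.19 to 0.04), overlapped with DMSO at 3 days, and Srebf1 was at 0.13 (interval 0.01 to 0.25, edgeR adjusted p = 0.122). Acaca and Acacb thus had the same direction against both controls and Fasn the opposite one, and both comparisons share the ISO libraries.

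Set against BML-260 at 1 day directly, the treatments differed in 5 of the 10 genes, 3 higher and 2 lower with BML-260, beside 44.4% of all genes tested (21.6% higher and 22.8% lower). Thrsp was higher with BML-260 by 1.16 (SE 0.05, edgeR adjusted p = 2.5e-15) or 2.24-fold, Me1 by 0.56 (SE 0.05, adjusted p = 2.51e-09) and Acacb by 0.20 (SE 0.05, adjusted p = 0.000779). Acaca was lower by 0.41 (SE 0.05, edgeR adjusted p = 3.06e-07) and Scd1 by 0.38 (SE 0.05, adjusted p = 3.3e-07). Fasn and Srebf1, which fell with both treatments, were not called between them, at -0.07 (95% interval -0.16 to 0.03) and 0.05 (interval -0.07 to 0.17). Each of these 5 calls held in all 16 alternatives.

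Around the pathway ISO against DMSO at 1 day had 19 higher and 20 lower of 65, or 60%, beside the 41.7% of all genes. Of the citrate supply genes 7 of 9 were lower and 1 higher, with Mdh1 at -0.67. Of the NADPH genes 5 of 8 were lower and 1 higher, with Idh1 at -0.49, Pgls at -0.42 and the mitochondrial Me2 at -0.36. Compared directly, 7 of the 9 citrate genes and 6 of the 8 NADPH genes were higher with BML-260 than with ISO, among them Mdh1 at 0.87 and Taldo1 at 0.61, beside 21.6% of all genes. Going the other way were the citrate carrier Slc25a1, at -0.14, both ChREBP targets, and 6 of the 12 elongation, desaturation and activation genes, of which 1 was higher. Nr1h3 was at -0.69, the other LXR gene Nr1h2 at 0.24 and Srebf2 at 0.30 with ISO against DMSO at 1 day. Both ChREBP targets tested rose, Txnip by 0.87 and Arrdc4 by 0.43. In this comparison 7 of 8 adipocyte markers fell and none rose, with a median of -0.47 beside -0.004 over all genes. The 4 tested preadipocyte and fibroblast markers were all higher, with a median of 1.1. Their part in these results was not tested.

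Ratios of counts within a library do not depend on the scaling of libraries. They were not tested. Scd1 to Scd2 was 1.89 and 1.96 with DMSO at 1 day, 1.52 and 1.61 with BML-260 at 1 day, and 2.05 and 1.87 with ISO. At 3 days it was 2.24 and 2.33 with DMSO and 1.82 and 1.76 with BML-260. At each time both BML-260 libraries had the lower ratio.

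Acaca to Acacb, the cytosolic against the mitochondrial carboxylase, was 2.78 and 2.45 with DMSO and 2.58 and 2.49 with BML-260 at 1 day, and overlapped. At 3 days it was 2.09 and 2.0 with DMSO and 2.80 and 2.69 with BML-260. With ISO it was 3.55 and 4.18, above the other 8 libraries. Acly to Fasn was 0.534 and 0.483 with DMSO and 0.739 and 0.699 with BML-260 at 1 day, and 0.694 and 0.691 against 0.902 and 0.923 at 3 days. With ISO it was 0.673 and 0.655, also above DMSO at 1 day. Counts of 2 genes differ with their lengths, so the level of a ratio says nothing of molecules, and the comparison is between groups.

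**Figure D5:**
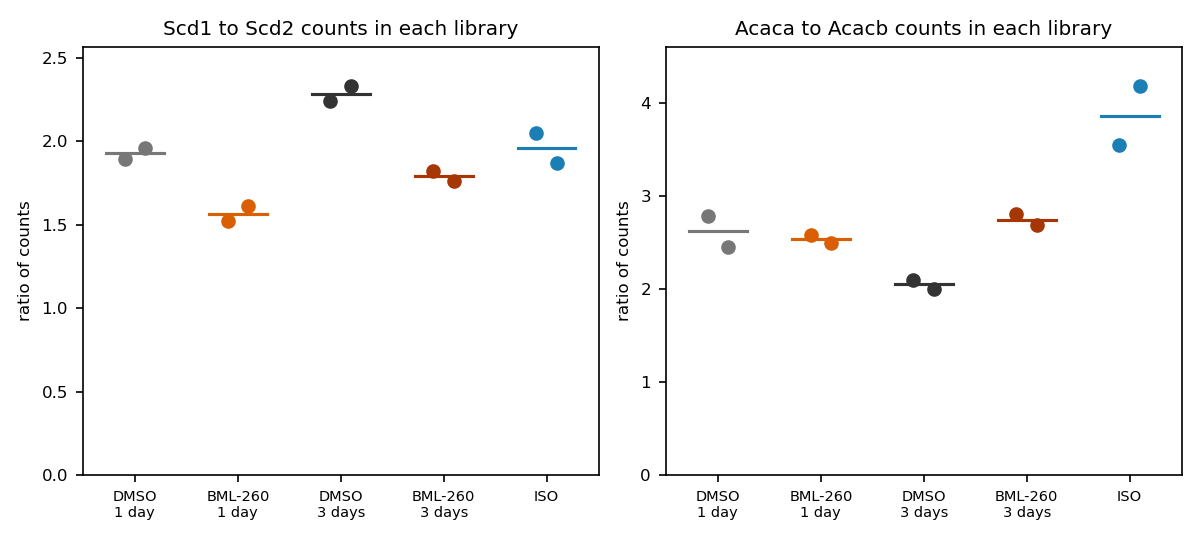
Ratio of the counts of 2 genes within each library (vertical axes, from 0) by group (horizontal axes), with points for libraries and lines for means. The Scd1 to Scd2 ratio is lower with BML-260 than with DMSO at each time, and the Acaca to Acacb ratio is highest with ISO, at 3.55 and 4.18.

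In the order of mean levels, neighbouring groups of Fasn did not overlap anywhere: DMSO at 1 day was highest at 1822 CPM, then ISO at 1460, BML-260 at 1 day at 1395, DMSO at 3 days at 980 and BML-260 at 3 days at 889 CPM. For Srebf1 the order was DMSO at 1 day, BML-260 at 1 day, ISO, DMSO at 3 days and BML-260 at 3 days, and only BML-260 at 1 day and ISO overlapped. For Thrsp BML-260 at 1 day was highest at 294 CPM and BML-260 at 3 days lowest at 108 CPM, and DMSO at 3 days and ISO overlapped. For Scd2 the 4 highest groups each overlapped with the next, and DMSO at 3 days stood below them.

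Among 9660 genes with at least 10 CPM, the 5 whose log2 CPM over the 10 libraries was most like that of Fasn were Dgat2, which makes triglyceride, and Lrp12, each with Pearson r = 0.979, Cdca3 (r = 0.974), Ucp2 (r = 0.971) and the mitochondrial dicarboxylate carrier Slc25a10 (r = 0.968). Those most like Srebf1 were Lfng (r = 0.989), C130074G19Rik (0.988), Pitpnm2 (0.987), Cdkn2c (0.981) and Extl3 (0.981). These correlations describe 5 pairs of libraries, and libraries of a group share their condition.

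The authors' deposited table of genes past their threshold lists 4 of the 10 at 1 day. They are Fasn at -0.38, Srebf1 at -0.38, Scd1 at -0.25 and Me1 at 0.36, the same 4 as here. At 3 days the authors' deposited table lists 9 of the 10: it has Acaca, at 0.13 with an adjusted p of 0.0071, and not Scd1, where the test here had Scd1 and not Acaca. On GRCm38 (GENCODE M21), Fasn lies on chromosome 11 from 120805846 to 120824547, Srebf1 on chromosome 11 from 60199089 to 60222581 and Thrsp on chromosome 7 from 97412938 to 97417730, all on the minus strand. Scd1 and Scd2 both lie on chromosome 19, from 44394455 to 44407879 on the minus strand and from 44293674 to 44306864 on the plus strand. Exons of Srebf1 and Mlxipl overlap those of genes on the other strand, Rai1 and Gm43500, over 3.11% and 4.24% of their exon bases, counting Mir6922 within Srebf1, and the counting is not stated to use strand.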

How the data were processed

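RNA sequencing of 10 libraries in 5 groups of 2 was analysed from the table the authors deposited, which holds raw counts per gene symbol, per the file headers. TRIzol extraction and Illumina libraries are given per the labels' protocols. Per the submitters' processing notes, builds mm10 and mm9 were used with DESeq2, bedtools, TopHat2 2.1.1 and bcl2fastq 2.17.1.14, with no roles stated. How reads were counted, by which annotation and strand, is not given in these sources. The authors also deposited lists of genes past their threshold, with a log2 fold change and an adjusted p-value per gene, per the file headers. These were used for BML-260 against DMSO at each time.

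The test was edgeR 4.0.16 in R 4.3.3 on the counts: TMM scaling, filterByExpr (count of 10, total of 15), the quasi-likelihood test with a mean for each group and 5 residual degrees of freedom, and p-values adjusted by Benjamini-Hochberg over 15212 genes. SE is the size of the log2 fold change over the root of F, and 95% intervals use the moderated degrees of freedom. Depth was 16955918 to 21185675 counts per library. The common dispersion of 0.00115, a coefficient of variation of 3.39%, adds the spread between libraries to counting error. The mean chi-square per gene between libraries of a group was 1.92 to 3.09. Libraries of the same number were not paired by any label.

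The members and lists were chosen with earlier results of these data known. Named genes were all members in each comparison, up to 4 genes of smallest p among those called in each list, and the 5 genes of highest Pearson r with Fasn and with Srebf1. Nr1h2 was named besides, as the other LXR gene of its list. A few list genes that the rule takes are counted but not reported here by name. Marker lists covered adipocytes, brown adipocytes (summing to 533 to 692 CPM in all libraries), preadipocytes and fibroblasts, smooth muscle, macrophages, endothelium and skeletal muscle. The largest part of the brown sum was Cox7a1, at 338.5 CPM with DMSO at 1 day, and 5 of the 6 brown markers, all but Dio2, were tested. With BML-260 against DMSO at 3 days 2 of them were called higher and 1 lower, beside 35.5% of all genes. Coordinates and exon lengths are from GENCODE M21 and promoters from RefSeq. Alternatives were DESeq2 1.42.0, other scalings, no filter, only the groups compared, a replicate block and leaving out each library.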

Additional observations from a re-analysis of the deposited data

Results flagged for a closer look

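The effect of BML-260 against DMSO differed between 3 days and 1 day for 3 of the 10 genes by a test of that difference (edgeR, adjusted over all genes). For Thrsp the difference of log2 fold changes was -0.4264 (SE 0.08, edgeR adjusted p = 0.000958): both libraries with BML-260 were above both controls at 1 day and below both at 3 days. For Acacb it was -0.2793 (SE 0.06, edgeR adjusted p = 0.00609), with overlapping libraries at 1 day and none at 3 days. For Fasn it was 0.2445 (SE 0.07, edgeR adjusted p = 0.022), with lower levels at both times. Every library contributes to these values, and those of Acacb and Fasn lose their call without single libraries, as given in the report.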

How the results depend on the processing

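Over 16 alternatives (DESeq2, DESeq2-type and upper-quartile scaling, no filter, only the groups compared, a replicate block, and each of 10 libraries left out), 452 of 480 log2 fold changes of members under the first 6, and 743 of 800 with a library left out, kept direction and side of the threshold. With other settings 17 gained a call, 9 lost one and 2 reversed. With a library left out 12 gained one, 28 lost one and 17 reversed. DESeq2 called 757 genes (1284 with edgeR) for the difference between times and 1991 (3026) for ISO against DMSO at 3 days. With upper-quartile scaling the difference of Srebf1 between times was -0.00049 and Acaca over time in BML-260 was -0.039, both uncalled. The same scaling turned higher against lower calls from 2625 and 2782 to 2077 and 3313 for BML-260 at 3 days, from 3253 and 3086 to 2588 and 3831 for ISO against DMSO at 1 day, and from 1620 and 1406 to 1234 and 1817 against DMSO at 3 days. It gave 470 and 807 (598 and 686) for the difference between times, 3821 and 2987 (3288 and 3464) for BML-260 against ISO, and 2979 and 4186 (3486 and 3565) for BML-260 over time, where members called became 0 higher and 7 lower. The cause was not tested.

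Leaving out a library, genes called ranged from 1235 to 2843 for BML-260 at 1 day, from 659 to 1371 for the difference between times and from 1469 to 3073 for ISO against DMSO at 3 days, with fewer samples in each fit. Members called ranged from 1 to 3 for the difference and from 5 to 8 for DMSO over time. Uncalled members that changed sign ranged, for BML-260 at 1 day, from -0.053 to 0.015 (Acacb) and from -0.0078 to 0.11 (Scd2). For the difference the ranges were -0.091 to 0.12 (Srebf1) and -0.16 to 0.033 (Me1). For DMSO over time they were -0.090 to 0.18 (Mlxipl) and -0.00076 to 0.077 (Scd1), and for BML-260 over time -0.041 to 0.049 (Acaca) and -0.093 to 0.018 (Scd2). For ISO they were -0.23 to 0.042 (Mlxipl, DMSO at 1 day) and -0.16 to 0.014 (Thrsp, DMSO at 3 days), and for BML-260 against ISO -0.0053 to 0.11 (Srebf1). A lone library left in a group is assumed to vary like the other groups.

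Deviations between libraries of a group showed little in common by replicate number: their correlations over 10 pairs of groups were -0.0344 to 0.0577. Such values over all genes cannot exclude a pairing that acts on some of them. With the replicate number as a block, higher and lower calls for the difference between times were 699 and 775, beside 598 and 686 without it. With the replicate number as a block, Mlxipl was called with BML-260 at 1 day (-0.19, edgeR adjusted p = 0.0133) and over time in BML-260 (-0.16, adjusted p = 0.0139), and Scd2 with ISO against DMSO at 1 day (0.11, adjusted p = 0.047). No other member's call changed under the block. For Mlxipl at 1 day the spread between the control libraries, 115 and 139 CPM, limits the value.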

Other observations

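Fasn to Acaca, a ratio of counts within a library, was 2.22 and 2.47 with DMSO and 1.82 and 1.92 with BML-260 at 1 day, and 1.44 and 1.41 with DMSO and at most 1.23 in both libraries with BML-260 at 3 days. With ISO it was 1.51 and 1.44. The synthase thus had fewer counts per carboxylase count in both BML-260 libraries at each time. The ratio was not tested.

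The 5 genes most like Srebf1 were chosen on these same libraries, so their values are a description. With BML-260 at 1 day Lfng, which modifies Notch receptors, stood at -0.71 on the log2 scale and C130074G19Rik at -0.55, beyond Srebf1 at -0.39. Pitpnm2 at -0.37, Extl3, a glycosyltransferase of heparan sulfate synthesis, at -0.36 and the cell cycle inhibitor Cdkn2c at -0.30 were near it. At 3 days the values were -0.79, -0.69, -0.44, -0.30 and -0.23 in the same order.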
